A study of Homo sapiens with 54 samples.

Results

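Olaparib-resistant (OlaR) SUM1315 cells, kept in 25 µM olaparib, were compared with parental SUM1315 cells given 8 µM olaparib, across all expressed genes. The comparison took the 3 OlaR libraries and the 3 parental olaparib libraries without cisplatin (CDDP), 6 of the 54 libraries of the series. SUM1315 is a triple-negative breast cancer line with a mutated BRCA1 gene, and olaparib inhibits the poly(ADP-ribose) polymerases PARP1 and PARP2. Per the study's methods, the OlaR line was raised by months of growth in increasing olaparib, and parental cells received the drug overnight. Both groups therefore carried olaparib when RNA was taken, at different doses and for very different times. Resistance, dose and length of culture cannot be told apart in these libraries. The same comparison with 2 or 4 µM CDDP on both sides, and in the line MDA-MB-468 (15 µM in OlaR cells, 3 µM in parental cells), was used to show where the difference recurred.

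PARP1 binds single-strand breaks in DNA and marks them with ADP-ribose chains. An inhibitor that holds PARP on DNA turns these breaks into damage at replication forks, and cells without working homologous recombination repair it poorly. Restored recombination, protected forks, drug efflux, loss of PAR glycohydrolase and loss of SLFN11 are among the routes to resistance described in tumour cells. Cytosolic DNA left by unrepaired damage can also switch on interferon signalling and, with it, the interferon-stimulated genes.

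RNA was measured by 3′ end sequencing of mRNA, with 3446613 to 3900438 reads per OlaR library and 5763500 to 6943388 per parental olaparib library. Values are reads adjusted by the authors to a common library size of 5585170, and are called adjusted reads here. Libraries of the same group correlated at 0.971 to 0.977 (Pearson's r of log2 values over genes) and libraries of different groups at 0.901 to 0.905. Parental olaparib replicate 3 stood furthest from its group, where chi-square divided by its degrees of freedom was 8.26 and 8.27 against replicates 1 and 2, and 2.39 to 2.86 for the remaining pairs of a group. The next values were taken over the 14460 genes tested across both lines, in place of the 13133 of SUM1315 used for those above. By these, OlaR SUM1315 libraries correlated at 0.909 to 0.934 with parental SUM1315 libraries and at 0.657 to 0.687 with MDA-MB-468 libraries. ESR1, PGR, SPDEF and TFF1 had at most 13 reads in any of the 6 libraries, and VIM, CD44 and CAV1 at least 1532. Other luminal markers were read, XBP1 with 369 to 1590 reads, GATA3 with 20 to 56 and FOXA1 with 0 to 19. ERBB2, which encodes HER2, had 23 to 51, and the basal keratins KRT5 and KRT14 had only 0 to 17 and 2 to 22. The defining fibroblast genes DCN and LUM, the leukocyte gene PTPRC and the endothelial genes VWF and CDH5 had at most 4. Nothing in the labels says that replicates came from separate cultures, so p-values measure only the spread between these libraries, which may be technical.

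Of 13133 genes tested, 987 were higher in OlaR cells (7.52%) and 1190 lower (9.06%), at an adjusted p of at most 0.05 and a fold change of at least 2. These are called DEGs here. Their shares over all genes are the background for the counts of this comparison in each gene list below. The median log2 fold change over all genes tested was -0.05. The 3 OlaR libraries did not overlap the 3 parental ones for 7300 genes (55.6%), and this held for 2103 of the 2177 DEGs. A change of at least 4-fold was seen for 347 of the higher and 341 of the lower DEGs, and of at least 32-fold for 26 and 18. No read was found in any OlaR library for 56 DEGs, and none in any parental olaparib library for 40. Fold changes are on the scale of log2(value + 1), which understates changes of genes with few reads.

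Several of the genes that rose furthest encode keratins, secreted ligands and skin proteins. KRT34, a hair keratin, had 445, 463 and 489 adjusted reads in the OlaR libraries and 0, 0.812 and 3 in the parental ones, a log2 fold change of 7.91 (SE 0.60, adjusted p = 1.3e-12). EDN1, the peptide endothelin-1, had 783, 751 and 845 against 5.43, 24.8 and 4.99, a log2 fold change of 6.31 (SE 0.43, adjusted p = 9.3e-14). IGFBP5, which binds insulin-like growth factors, had 1613, 1425 and 1266 against 23.5, 16 and 19 (log2 fold change 6.14, adjusted p = 1.7e-17). The groups were far apart for all 3 genes, and no overlap between them was part of the rule that chose these genes. SHH, a hedgehog ligand, had 162, 165 and 175 against 1.88, 0.812 and 0.999. FARP1, a guanine nucleotide exchange factor, had 125, 184 and 113 against 2.84, 1.7 and 0. OLR1, a receptor for oxidised lipoprotein, had 343, 369.9 and 339 against 2.72, 5.07 and 8.99. Their log2 fold changes were 6.27 (SHH), 5.99 (FARP1) and 5.85 (OLR1).

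Several of these genes had no or almost no parental reads. IL1RN, the interleukin-1 receptor antagonist, had 101, 121 and 107 adjusted reads in OlaR cells and no parental read, which is at least 119-fold higher (against a floor of 3 reads over the group, covering counting error only). TMEM98, a membrane protein, was at least 104-fold higher, SPANXN4, a testis gene of the X chromosome, at least 86.1-fold, KRTAP7-1, a hair keratin-associated protein, at least 69.4-fold, and DMKN, the skin protein dermokine, at least 62.1-fold. IL36G, an epithelial cytokine of the interleukin-1 family, had 57, 37 and 54 reads against 0, 0 and 1, a ratio of 260.3 with a 95% counting interval of 46 to 10350.0. All 6 genes passed the test, with adjusted p between 3.5e-12 and 3.5e-09.

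**Figure D1:**
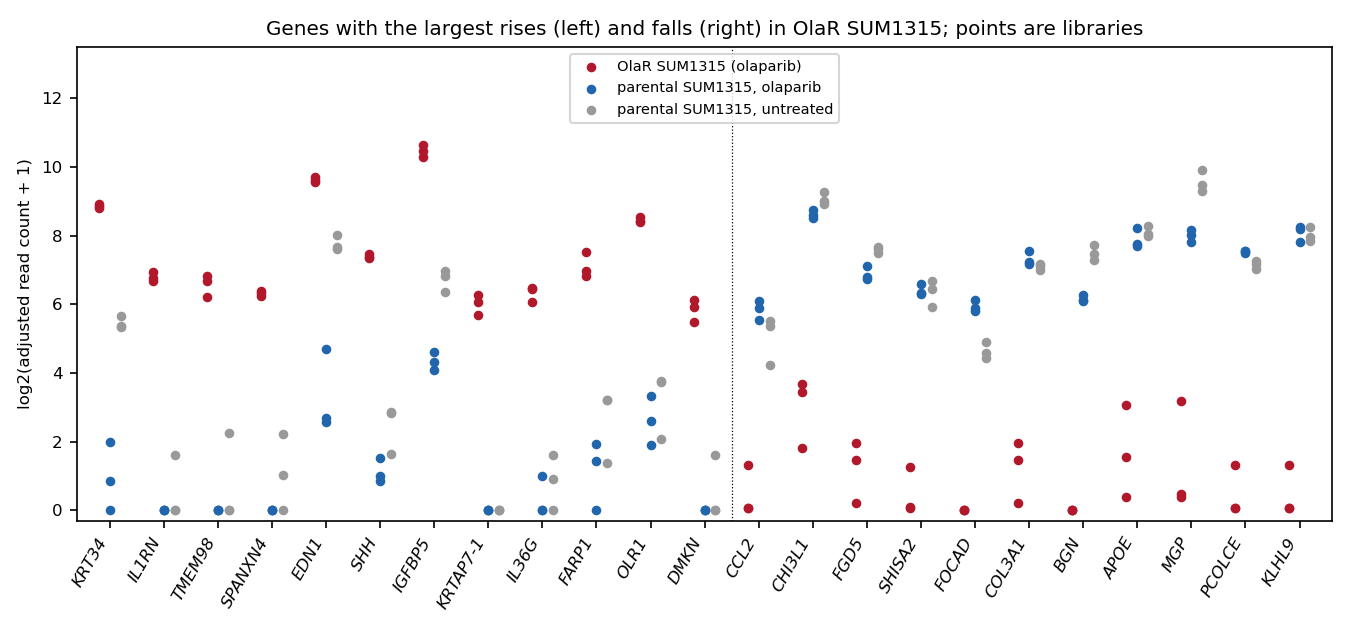
Log2(adjusted reads + 1) of the genes with the largest rises (left) and falls (right), 1 point per library, for OlaR (red), olaparib-treated parental (blue) and untreated parental SUM1315 (grey). The 3 OlaR libraries and the 3 olaparib-treated ones do not overlap for any gene shown, which was part of the rule that chose them.

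Among the genes that fell furthest, several encode extracellular matrix and secreted proteins. MGP, an inhibitor of calcification, had 225, 285 and 261 adjusted reads in the parental libraries and 0.315, 0.383 and 8.18 in the OlaR ones, a fall by 6.65 on the log2 scale (SE 0.45, adjusted p = 7.3e-14). CHI3L1, a secreted chitinase-like protein, had 364, 388 and 428 against 2.54, 9.93 and 11.9 and fell by 5.63. APOE, a lipid carrier, had 205, 216 and 301 against 0.316, 7.32 and 1.94 and fell by 6.23. All parental libraries were far above all OlaR libraries for these 3 genes, and no overlap between the groups was part of the rule that chose them. BGN, the proteoglycan biglycan, had 73, 90 and 69 parental reads and none in OlaR cells, at least 43.9-fold lower. COL3A1, a fibrillar collagen, had 518 parental and 3 OlaR reads over the group, and PCOLCE, which helps process procollagen, had 193, 221 and 186 against 0, 1 and 0. The parental level was 98.2 times the OlaR level for COL3A1 (95% counting interval 33.4 to 478) and 341 times for PCOLCE (61 to 13496). CCL2, a monocyte chemokine, was 106 times higher in parental cells (18.7 to 4199), SHISA2 157 times (27.9 to 6220.4) and FGD5 71.8 times (24.4 to 349.9). KLHL9, an adaptor of a ubiquitin ligase, and FOCAD also belong to this group and are described with their chromosome region.

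Interferon-stimulated genes (ISGs) were lower in OlaR cells. Of 43 tested, 26 were lower DEGs and none was higher, with a median log2 fold change of -1.19. RSAD2, the antiviral protein viperin, had 28, 42.5 and 18 adjusted reads in parental cells and none in OlaR cells, at least 18.1-fold lower. HERC5, the ligase that attaches ISG15 to proteins, had 122, 92.7 and 73.9 against 4.75, 5.18 and 4.85 and fell by 4.01. IFI44L had 72.5, 104 and 105 against 8.71, 2.59 and 6.35 and fell by 3.88. No OlaR library reached the level of a parental one for these genes, and the groups were likewise apart for 2103 of the 2177 DEGs. IFIT2, which binds viral RNA, had 281, 265 and 276 against 27.8, 23.4 and 28.4 and fell by 3.32 (SE 0.16, adjusted p = 8.6e-18). OASL fell by 3.08, DDX60 by 2.86 and IFIT3 by 2.73. Among sensors and regulators, DDX58, the RNA sensor RIG-I, fell by 1.33, IFIH1, the sensor MDA5, by 1.32, and IRF7, a transcription factor of the interferon response, by 1.38. IRF9, the DNA-binding subunit of the interferon-activated transcription complex, also fell by 1.38, from 63 reads over the parental and 12 over the OlaR libraries. The 2 abundant membrane genes IFITM1 and IFITM2 fell by 1.17 and 1.08. The number of lower ISGs was 24 to 27 over the alternative settings and left-out libraries.

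Promoters of 4 of the fallen ISGs are shown because they carry the core of the interferon-stimulated response element, the site bound by the IRF9 complex and related factors. Each is 300 bases, from 250 before to 50 after the annotated start of the gene, from RefSeq on GRCh38.p14. The letters searched were GAAANNGAA on both strands, with overlapping matches counted, and capitals mark matches on either strand.
RSAD2, chr2:6865635-6865934, plus strand: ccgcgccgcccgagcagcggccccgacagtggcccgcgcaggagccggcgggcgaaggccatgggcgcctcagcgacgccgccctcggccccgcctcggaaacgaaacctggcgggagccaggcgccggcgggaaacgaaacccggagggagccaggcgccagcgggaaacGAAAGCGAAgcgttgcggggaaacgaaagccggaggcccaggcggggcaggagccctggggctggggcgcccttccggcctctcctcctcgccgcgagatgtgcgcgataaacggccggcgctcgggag
HERC5, chr4:88456869-88457168, plus strand: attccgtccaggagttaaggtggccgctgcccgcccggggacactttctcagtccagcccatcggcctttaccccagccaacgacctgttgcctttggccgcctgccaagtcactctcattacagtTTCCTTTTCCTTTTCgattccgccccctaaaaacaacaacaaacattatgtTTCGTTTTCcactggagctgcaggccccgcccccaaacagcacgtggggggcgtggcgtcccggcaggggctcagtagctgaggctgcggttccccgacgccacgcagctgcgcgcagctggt
IFI44L, chr1:78620198-78620497, plus strand: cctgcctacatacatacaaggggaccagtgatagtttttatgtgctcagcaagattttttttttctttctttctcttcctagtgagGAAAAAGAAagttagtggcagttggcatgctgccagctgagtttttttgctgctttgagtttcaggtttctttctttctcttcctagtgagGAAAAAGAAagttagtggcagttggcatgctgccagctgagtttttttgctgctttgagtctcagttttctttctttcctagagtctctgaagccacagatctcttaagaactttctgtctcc
DDX60, chr4:168318703-168319002, minus strand: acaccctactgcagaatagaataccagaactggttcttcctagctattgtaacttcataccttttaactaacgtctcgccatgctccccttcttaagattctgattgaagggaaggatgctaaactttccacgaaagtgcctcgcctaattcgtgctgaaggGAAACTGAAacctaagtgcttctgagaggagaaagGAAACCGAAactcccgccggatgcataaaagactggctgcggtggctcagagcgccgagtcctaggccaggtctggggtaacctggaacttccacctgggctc
HERC5 held 3 matches, IFI44L and DDX60 2 each and RSAD2 1. The core was found in 14 of the 19 fallen ISGs with a promoter in the table (73.7%) and in 9 of the 14 ISGs that were not called (64.3%). It was found in 8.29% of all 27305 promoters and in 6.54% of those of genes tested. A match describes the letters and does not show binding.

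Genes of MHC class I antigen presentation, many of them also induced by interferon, were lower in 4 of 18 (22.2%) and higher in none. Their median log2 fold change was -0.53. HLA-B had 6847, 6719 and 6823 adjusted reads in parental and 2241, 2153 and 2123 in OlaR cells, a fall by 1.65 (SE 0.07, adjusted p = 3.7e-19). HLA-C fell by 1.71. The HLA genes resemble each other closely and their reads may be split between them in counting. NLRC5, the transcription activator of these genes, fell by 1.78. SOCS1, a suppressor of interferon signalling, also fell, with 249, 311 and 159 against 61.6, 44.4 and 39.9 (log2 fold change -2.25).

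Genes of DNA replication were higher in OlaR cells. Of 33 tested E2F targets, the genes that drive entry into S phase, 16 were higher DEGs and none was lower, with a median log2 fold change of 0.92. CDC6, which loads the replicative helicase, had 683, 712 and 639 adjusted reads in OlaR and 276, 248 and 246 in parental cells (log2 fold change 1.40, SE 0.09, adjusted p = 1.7e-14). MCM4, a helicase subunit, had 1110.3, 1217 and 1253 against 447, 465 and 443 (1.40), and MCM3, MCM6 and MCM7 rose by 1.18, 1.04 and 1.24. CCNE1, the G1/S cyclin E1, had 166, 209 and 189.9 against 73.9, 78.7 and 60 (1.40). UHRF1, which maintains DNA methylation, had 69.4, 65.7 and 58.5 against 15.7, 28.4 and 27 (1.45). E2F1 and E2F2 themselves both rose by 1.07. In each of these the groups did not overlap, as for 2103 of the 2177 DEGs and 55.6% of all genes tested. The number of higher E2F targets was 12 to 16 over the alternative settings, and was 12 without parental replicate 3. Sites with the E2F letters TTTCCCGC, TTTGGCGC or TTTCGCGC (either strand, capitals below) were found in 10 of the 14 higher members with a promoter (71.4%) and in 7 of the 13 not called (53.8%), against 4.72% of promoters of all genes tested and 2.79% of all promoters. The promoters of UHRF1 and CDC6 are shown as examples with 1 match each, and that of CCNE1 held none of these letters.
UHRF1, chr19:4909251-4909550, plus strand: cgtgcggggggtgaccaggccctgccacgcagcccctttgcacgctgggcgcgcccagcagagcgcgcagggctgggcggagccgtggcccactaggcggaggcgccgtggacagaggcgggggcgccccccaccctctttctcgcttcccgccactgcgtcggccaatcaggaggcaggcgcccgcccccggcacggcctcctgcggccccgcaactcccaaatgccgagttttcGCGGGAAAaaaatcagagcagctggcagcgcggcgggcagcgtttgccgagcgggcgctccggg
CDC6, chr17:40287629-40287928, plus strand: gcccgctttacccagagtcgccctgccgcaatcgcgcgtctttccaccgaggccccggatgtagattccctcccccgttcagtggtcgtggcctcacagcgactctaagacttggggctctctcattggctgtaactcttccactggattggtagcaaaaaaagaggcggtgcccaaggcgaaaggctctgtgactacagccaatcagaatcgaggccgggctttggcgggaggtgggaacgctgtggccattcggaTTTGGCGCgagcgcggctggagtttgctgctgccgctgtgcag

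Mitotic genes did not follow the replication genes. Of 38 G2/M genes, 6 were lower (15.8%), 1 was higher (2.63%) and the median log2 fold change was -0.26. Over all genes, 9.06% were lower and 7.52% higher. CENPE, a kinetochore motor, had 1039, 1038 and 1608 adjusted reads in parental cells and 329, 283 and 250.2 in OlaR cells, and fell by 2.07. PLK1, the mitotic kinase, had 411, 457 and 349 against 119, 122 and 132 and fell by 1.69, and CENPF, ASPM, HMMR and KIF14 fell by 1.48, 1.39, 1.33 and 1.17. BUB1, a spindle checkpoint kinase, was the member that rose, by 1.00, and it went just under the 2-fold limit without any 1 of OlaR replicates 2 and 3 or parental replicates 2 and 3 (log2 fold change 0.95 to 0.99). With a pseudocount of 5 or under quantile normalization, no G2/M gene was a higher DEG. Among 26 p53 targets, 5 were lower (19.2%) and none was higher (median -0.46). Per the paper, SUM1315 expresses mutant p53, and p53 activity was not tested here. BTG2, an antiproliferative gene, fell by 1.55, RRM2B, a ribonucleotide reductase subunit, by 1.41, and FAS, a death receptor, by 1.01.

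**Figure D2:**
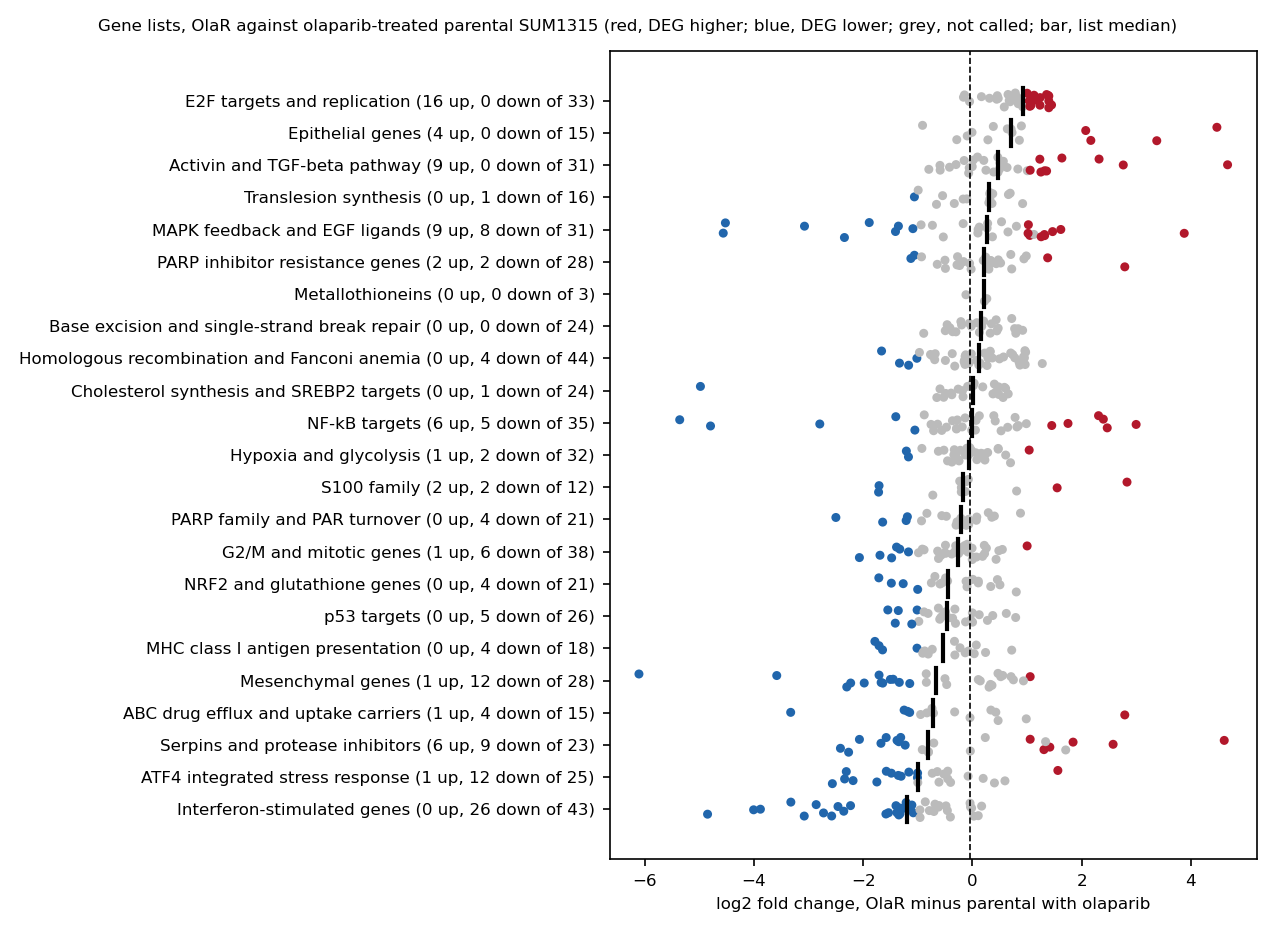
Log2 fold change (OlaR minus olaparib-treated parental SUM1315, x axis) of every tested member of each gene list, 1 point per gene, red for higher DEGs, blue for lower DEGs and grey for the rest, with a bar at the list median and a dashed line at the median of all genes tested (-0.05). Interferon-stimulated genes lie mostly below 0 (median -1.19) and E2F targets mostly above 0 (median 0.92).

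Some epithelial genes were higher and many mesenchymal genes were lower. Of 15 epithelial genes, 4 were higher, 11 were not called and none was lower (median 0.71). The luminal keratins KRT8 and KRT18, at -0.09 and 0.28, were among those not called. KRT17 had 3612, 3447 and 3733 adjusted reads in OlaR cells and 820.2, 838 and 900.4 in parental cells (log2 fold change 2.08, SE 0.08, adjusted p = 1.8e-19). KRT6A had 68.5, 51.8 and 56.4 against 2.82, 0 and 4 (4.48), and KRT5 22.2, 28.4 and 21.3 against 0, 3.53 and 2 (3.38). KRT14 rose by 2.17 from fewer reads. Of 28 mesenchymal genes, 12 were lower and 1 was higher (median -0.67), while 15 were not called. Among the lower members were 5 transcription factors. SNAI1 had 107, 113 and 86.9 against 9.05, 7.14 and 6.66 and fell by 3.58, ZEB2 fell by 2.30, TWIST1 by 1.5, ZEB1 by 1.45 and TWIST2 by 1.15. CDH2, N-cadherin, fell by 1.34, and the collagens COL6A2, COL6A1 and COL1A1 had log2 fold changes of -2.23, -1.98 and -1.67. In bulk RNA, fewer cells of a type and less RNA per cell cannot be told apart.

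Some markers of other cell types fell with the matrix genes. All 4 fibroblast markers tested (COL1A1, COL3A1, PDGFRA and PDGFRB) were lower, and the summed level of the list was 273.7 to 343.8 adjusted reads in OlaR and 1168 to 1256 in parental libraries. COL1A2, DCN and LUM, which define fibroblasts, had 0 to 4 reads per library in both groups. The leukocyte marker CD14 and the endothelial marker PECAM1 fell by 1.40 and 1.31, with PTPRC and CD3E at 0 or 1 read and VWF, CDH5 and KDR at 0 or 1. The part of other cells in the fall of the matrix genes was not tested beyond these reads. Of 8 markers of basal and mesenchymal-like cancer cells, 4 were higher and none was called lower, while 3 had a log2 fold change below 0. The list did not rise as a whole. Its summed level was 24010 to 24810 adjusted reads in OlaR and 23980 to 24580 in parental libraries.

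The activin and TGF-beta list had 9 higher (29%) and no lower members of 31, with a median log2 fold change of 0.47. INHBA, whose product forms activin A, had 1359, 1321 and 1346 adjusted reads in OlaR cells and 54.2, 59.1 and 43 in the parental ones, which is 4.67 on the log2 scale (SE 0.12, adjusted p = 1.4e-24). Its secreted antagonists rose too. FSTL3 had 263, 272 and 264 against 52.6, 27.5 and 39 (2.76), and FST, follistatin, 25.8, 18.4 and 22.4 against 1.8, 3.35 and 7 (2.32). TGFBR1, the type I receptor, rose by 1.36, the ligand TGFB2 by 1.26, the decoy receptor BAMBI by 1.64, and the targets ID3 and ID2 by 1.32 and 1.24.

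Most EGF ligands named here rose, and EGR1 and FOS fell. The list of MAPK feedback genes and EGF ligands held 9 higher and 8 lower members of 31 (median 0.27). Of the ligands, NRG1, neuregulin 1, had 237, 191 and 194 adjusted reads against 12.1, 15.5 and 12 in parental cells (log2 fold change 3.88), TGFA rose by 1.47, AREG by 1.32 and EREG by 1.02, while EPGN fell by 3.07. EGR1, an immediate early transcription factor, had 1469.8, 1511 and 1215 in parental and 56.4, 64.6 and 53.5 in OlaR cells and fell by 4.56 (SE 0.14, adjusted p = 3.6e-23), and FOS fell by 4.52, with 4 reads over the OlaR libraries and 203 over the parental ones. JUN rose by 1.32. The phosphatases that dampen MAPK signalling were split, with DUSP5 and DUSP4 higher by 1.62 and 1.05 and DUSP6 lower (log2 fold change -1.35). NF-kB targets were also split, with 6 higher and 5 lower of 35, and the median of -0.01 turned positive under quantile normalization, DESeq2 and thinned reads. Of the NF-kB targets that rose, IL1B went from 579, 561 and 714 to 3303, 3207 and 3220.2 (2.40), and CXCL8 rose by 2.31, CXCL1 by 1.75 and IL1A by 1.45. BCL2A1, a survival gene, rose by 2.47 and CSF2, the cytokine GM-CSF, by 3.00. CXCL10, a chemokine that interferon also induces, fell from 1073, 1064 and 1167 to 150.3, 161 and 162 (-2.79), and the adhesion gene VCAM1 fell by 4.79.

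Genes of the ATF4 integrated stress response, which is set off by amino acid shortage and unfolded protein, were lower in 12 of 25 and higher in 1 (median -0.999). CHAC1, which degrades glutathione, had 179, 182 and 148 adjusted reads in parental cells and 26.7, 29.2 and 27.3 in OlaR cells and fell by 2.56. DDIT4, an inhibitor of mTORC1, fell by 2.34, NUPR1 by 2.18, TRIB3 by 1.75 and the serine synthesis genes PHGDH and PSAT1 by 1.58 and 1.31. ATF4 itself had 2193, 2129 and 2290.4 against 1070.3, 1069.6 and 1158. STC2, a secreted glycoprotein, rose by 1.57. NRF2 and glutathione genes, the response to oxidants, held 4 lower (19%) and no higher members of 21 (median -0.45). Among the lower members were the cystine carrier SLC7A11 (log2 fold change -1.48) and OSGIN1 (-1.71).

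Of the genes chosen for their role in PARP inhibitor response and described here, BRCA2 and ABCB1 passed both the test and the 2-fold limit. PARP1 had 1781, 1829 and 1680.0 adjusted reads in OlaR against 1394, 1329 and 1277, a difference of 0.40 on the log2 scale (SE 0.09, adjusted p = 3.0e-04) that was under the 2-fold limit. PARP2 had 193, 192 and 183 against 201, 137 and 208 (0.08, adjusted p = 0.67), and its sign turned to -0.11 without parental replicate 2. PARG, the hydrolase that removes ADP-ribose chains, had 56.2, 55.8 and 58.8 against 99.8, 102 and 129 (-0.93, adjusted p = 2.4e-04), below the parental libraries but under the 2-fold limit. Of 21 genes of the PARP family and ADP-ribose turnover, 4 were lower (19%) and none was higher (median -0.21). They were the ADP-ribose hydrolase MACROD1 (log2 fold change -2.50), PARP8 (-1.64), PARP9 (-1.21) and PARP14 (-1.19), the last 2 of them also ISGs.

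Recombination genes gave 4 lower and no higher members of 44 (median 0.13), with 0 to 6 higher and 2 to 4 lower over the alternative settings. The share lower was 9.09%, against 9.06% of all genes, and the share higher 0%, against 7.52%. BRCA2, a mediator of homologous recombination, had 124, 149 and 164 adjusted reads in parental and 44.1, 63.1 and 65.7 in OlaR cells and fell by 1.33 (SE 0.20, adjusted p = 2.1e-06). ATM, the kinase that signals double-strand breaks, had 176, 214 and 232 against 61.3, 74.4 and 58.5 and fell by 1.66. BRCA1, the gene mutated in this line, had 344, 336 and 356 against 206, 236 and 257 (0.57, adjusted p = 6.5e-04), a level that says nothing of the allele. CHEK2 and RAD52 fell by 1.02 and 1.17.

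Genes proposed for PARP inhibitor resistance held 2 higher and 2 lower members of 28 (median 0.22). That is 7.14% in each direction, against 7.52% higher and 9.06% lower of all genes. TP53BP1, whose loss restores end resection, had 505, 545 and 524 in OlaR and 436, 483 and 413 in parental cells (0.24, adjusted p = 0.054), and SLFN11, which blocks stressed replication forks, 222, 235 and 224 against 259.6, 297 and 267 (-0.27, adjusted p = 0.11). CTC1, a telomere and end-fill-in factor, rose by 1.38. HLTF, a fork remodelling translocase, fell by 1.06 and CXorf57 by 1.13, the latter at -0.90 and under the limit without OlaR replicate 3. Translesion synthesis genes held 1 lower (HLTF) of 16 (median 0.31). POLH, the translesion polymerase eta, had 324, 249 and 279.9 against 222, 215 and 218 (0.37, adjusted p = 0.040). Of 24 genes of base excision and single-strand break repair none was called in either direction (median 0.15). Among 15 drug carriers, 1 was higher and 4 were lower (median -0.71). ABCB1, the efflux pump P-glycoprotein, of which olaparib is a substrate, had 12, 2 and 17 reads in OlaR and 1, 5 and 0 in parental cells, with a log2 fold change of 2.79 (SE 0.71, adjusted p = 1.6e-03) from 31 and 6 reads in all. Its adjusted reads were 18.4, 5.8 and 25.2 against 0.903, 4.47 and 0, and OlaR replicate 2 was close to the highest parental library. ABCC1, ABCC2 and ABCC3 fell by 1.19, 1.25 and 1.15, and SLC47A1 by 3.33.

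Genes were also read in their order along the chromosomes. Positions are those of the annotation on GRCh38, and 12771 tested genes were placed. Over 11874 overlapping runs of 40 neighbouring genes, the lowest and highest 1% of run medians lay beyond log2 fold changes of -0.91 and 0.60. The lowest run was on chromosome 9 from RFX3 to KLHL9 (chr9:3218297-21335404), with a median of -1.34, 31 of 40 genes lower DEGs and 36 below 0. The next were on chromosome 7 from CBX3 to KIAA0895 (chr7:26201162-36390125, median -1, 18 lower) and on chromosome 16 from SOCS1 to REXO5 (chr16:11254417-20900349, median -0.99, 19 lower). The 3 highest runs were all on chromosome 7 with medians of 0.69 to 0.71, and in MDA-MB-468 the same runs had medians of 0.46 to 0.47. The chromosome 9 run had a median of -0.04 in MDA-MB-468. JAK2, the cytokine receptor kinase in the chromosome 9 run, had 285, 296 and 229 adjusted reads in parental and 26.1, 17.2 and 53 in OlaR cells (log2 fold change -3.17), and SNX10, a sorting nexin on chromosome 7, 642, 650.3 and 627 against 62.9, 70.1 and 38.2 (-3.51). In the highest runs, RFC2, a clamp loader subunit, had 278, 348 and 328 in OlaR and 86, 96.9 and 61 in parental cells (1.98), and EN2, a homeobox factor, rose by 1.49. LAT2 and MUC12 rose there from few reads, MUC12 with 7, 7 and 1 reads in OlaR and none in parental cells. By chromosome, the share of genes that were lower DEGs was largest for chromosomes 13 (16.8%), 16 (16.3%) and 9 (15.7%), against 9.06% of all genes. Only RNA was measured, and why neighbouring genes moved together was not tested.

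**Figure D3:**
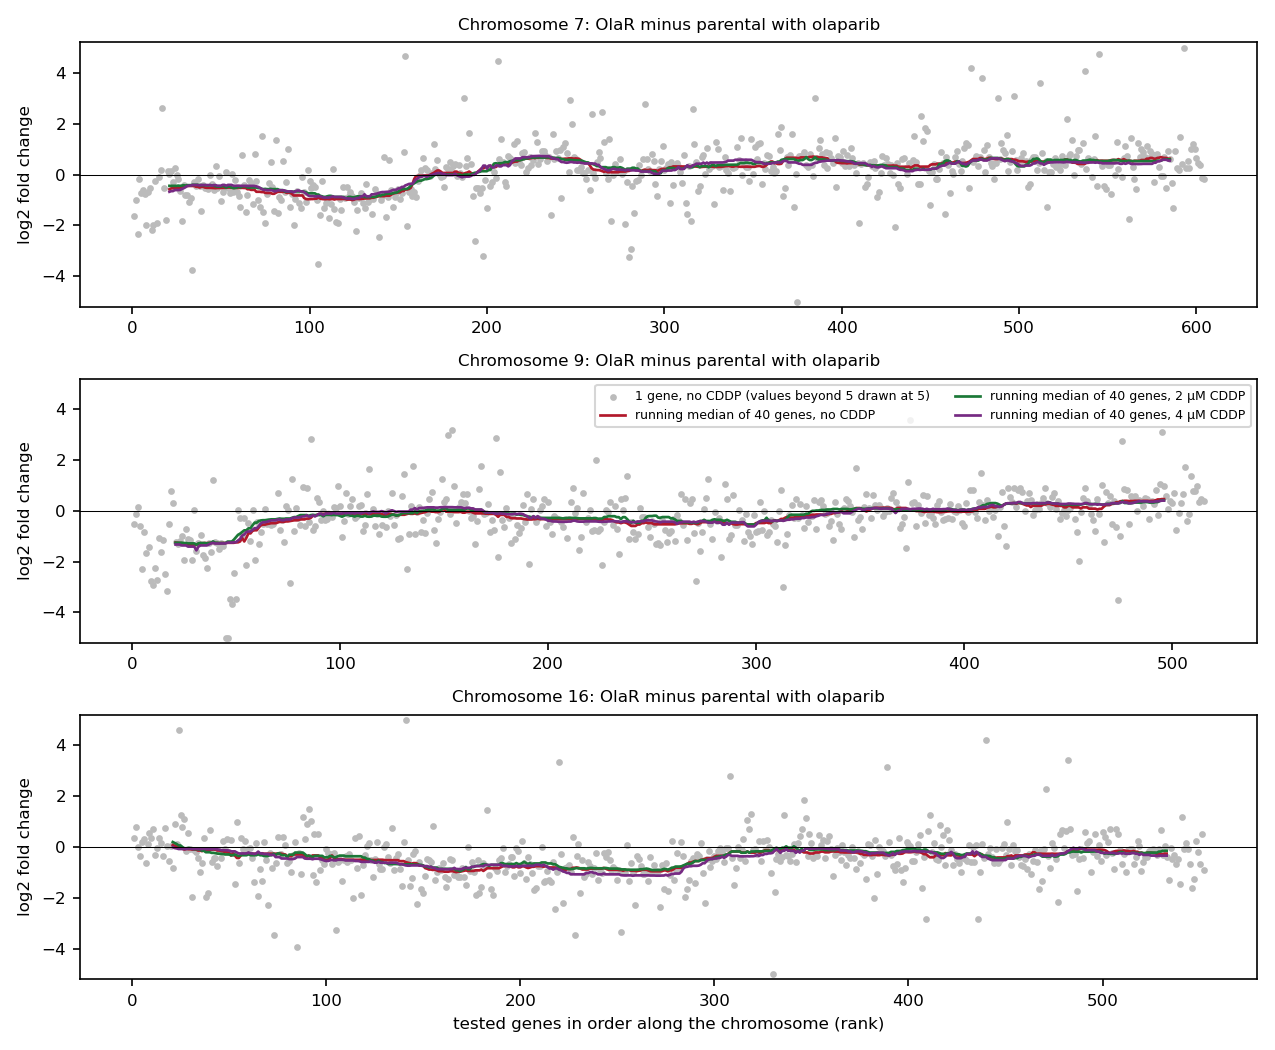
Log2 fold change (OlaR minus olaparib-treated parental SUM1315, y axis) of tested genes in order along chromosomes 7, 9 and 16, with grey points for genes without CDDP and lines for running medians of 40 genes without CDDP (red), with 2 µM (green) and with 4 µM (purple). The lines run close together and are lowest at the start of chromosome 9, where the lowest run had a median of -1.34.

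At the end of the chromosome 9 run, reads of a whole stretch of genes were missing from OlaR cells. This stretch was chosen after its values were seen. From FOCAD to LINC01239 (chr9:20658309-22824213), 14 of 31 annotated genes in the table had a read in any of the 18 parental SUM1315 libraries, and 13 of these had none in any of the 9 OlaR SUM1315 libraries, CDDP-treated ones included. Of these 13, 7 had at most 13 reads over the 18 parental libraries together, so their 0 says little, and 6 had none in the 3 olaparib-treated parental libraries either. The stretch held 5569 reads in the parental and 6 in the OlaR libraries, all 6 of KLHL9, of 111813093 and 36021382 reads in all. FOCAD, a focal adhesion gene, had 74, 69 and 55 reads in parental olaparib cells and none in OlaR cells, at least 37.5-fold lower. KLHL9 had 311, 358 and 223 reads against 0, 1 and 0, a ratio of 507 (95% counting interval 90.8 to 20054). CDKN2A, which encodes the cell cycle inhibitors p16 and ARF, had 13, 9 and 18 against none, at least 7.68-fold lower, and its neighbour CDKN2B, which encodes p15, 8, 6 and 2 against none, at least 3.01-fold lower. MIR31HG and LINC01239, long noncoding RNAs, were at least 6.74-fold and 6.68-fold lower. The genes on the far side were not all lower. ELAVL2, a neuronal RNA-binding gene, had 23, 16 and 32 OlaR and 35, 43 and 43 parental reads, a log2 fold change of 0.02 (adjusted p = 0.97). TUSC1 was at -0.27 (adjusted p = 0.21) and CAAP1, an apoptosis regulator, at -0.95. On the near side, RPS6, a ribosomal protein, fell by 1.38, with 4318, 3901 and 4032 reads against 18373, 19804 and 17819. OlaR MDA-MB-468 cells, with and without CDDP, had 9994 reads of CDKN2A over 9 libraries, and parental ones 34598 over 18. Parental SUM1315 cells had only 334 over 18, so CDKN2A was already low in that line. MTAP, in the same stretch, had 13 reads in the 18 parental SUM1315 and 6448 in the 18 parental MDA-MB-468 libraries.

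**Figure D4:**
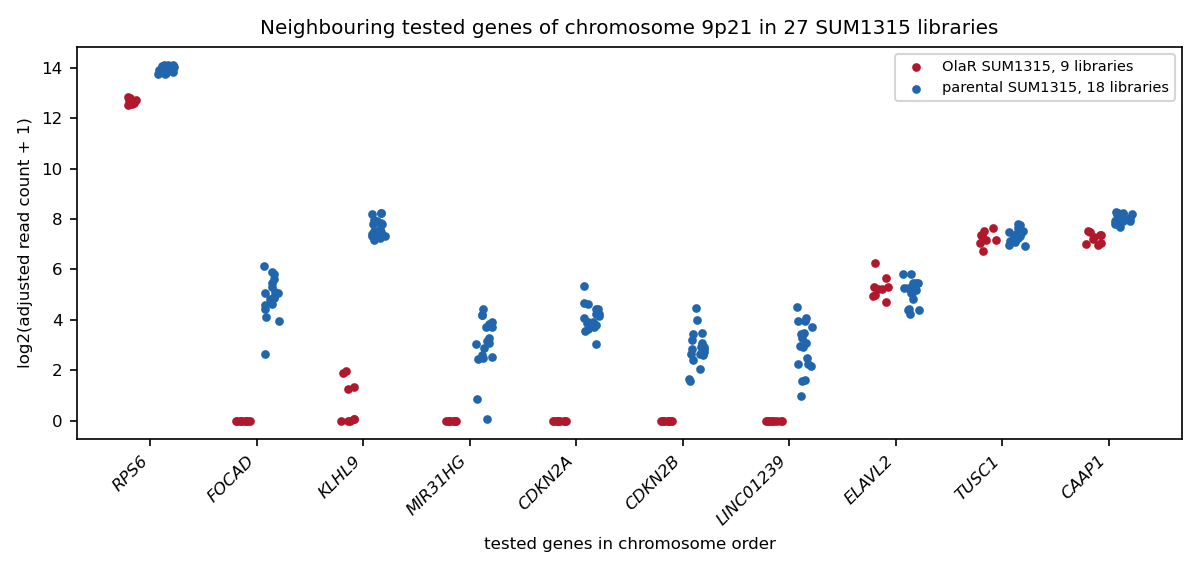
Log2(adjusted reads + 1) of tested genes from RPS6 to CAAP1 on chromosome 9, in chromosome order, with 1 point per library for the 9 OlaR (red) and 18 parental (blue) SUM1315 libraries, CDDP-treated ones included. From FOCAD to LINC01239 the OlaR libraries are at 0 with the exception of a few KLHL9 reads, and from ELAVL2 on they have reads again.

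The matched comparisons asked whether the difference recurred when CDDP was given to both sides. With 2 µM CDDP, 929 genes were higher (7.07%) and 1108 lower (8.44%), and with 4 µM 783 (5.96%) and 1302 (9.91%). These libraries are separate from the 6 compared above. They come from the same OlaR and parental lines and share the estimate of the spread, so they are not a further derivation of resistance. Of the 987 higher DEGs, 598 were higher at 2 µM (60.6%, or 64.4% of those called there) and 514 at 4 µM (52.1%, or 65.6%). Of the 1190 lower DEGs, 728 were lower at 2 µM (61.2%, or 65.7%) and 732 at 4 µM (61.5%, or 56.2%). Over all 3 comparisons 448 genes were higher and 610 lower. An opposite call was found for 4 DEGs at 2 µM and 7 at 4 µM. The median log2 fold change of the higher DEGs was 1.60 without CDDP, 1.32 at 2 µM and 1.16 at 4 µM, and that of the lower ones -1.54, -1.27 and -1.30.

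**Figure D5:**
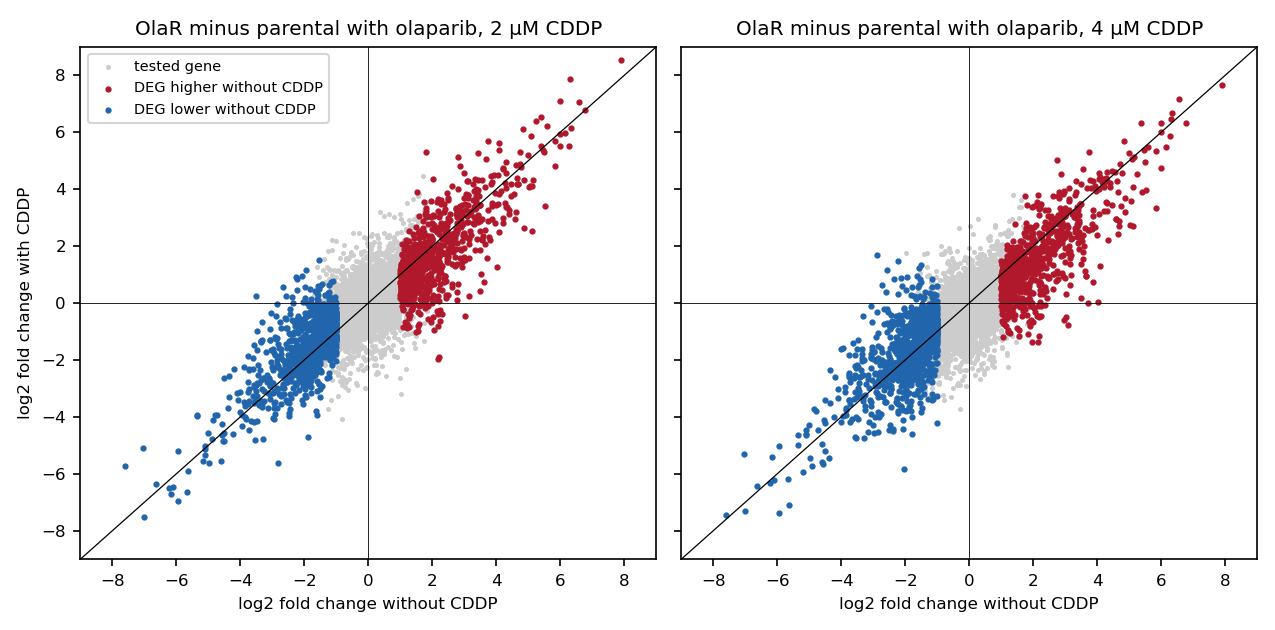
Log2 fold change (OlaR minus olaparib-treated parental SUM1315) with 2 µM (left) or 4 µM (right) CDDP on both sides (y axis) against that without CDDP (x axis), 1 point per tested gene, red and blue for the higher and lower DEGs without CDDP, with the line of equal values. Of the 2177 DEGs, 2092 had the same sign at 2 µM and 2062 at 4 µM.

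Group by group, the ISGs were lower in 29 of 43 at 2 µM and 20 at 4 µM, with medians of -1.28 and -0.96. The E2F targets were higher in 10 and 6 of 33, with medians of 0.78 and 0.61. ATF4 targets were lower in 11 and 12 of 25 (medians -0.95 and -0.95), mesenchymal genes in 12 and 12 of 28, and MHC class I genes in 4 and 5 of 18. Epithelial genes were higher in 5 and 7 of 15, and activin and TGF-beta pathway genes in 8 and 5 of 31, with 1 lower at 2 µM. G2/M genes were lower in 7 and 3 of 38, with 1 higher at 4 µM. The 3 lower at 4 µM are a share under the 9.91% of all genes there. NF-kB targets were higher in 7 and 3 of 35 and lower in 3 and 9 (medians -0.06 and -0.30). MAPK feedback genes and EGF ligands were higher in 8 and 4 of 31 and lower in 7 and 8 (medians 0.08 and -0.13). The lower calls among NRF2 and glutathione genes did not recur, with 0 of 21 called in either direction at both doses and medians of -0.21 and 0.06. Among single genes, INHBA was higher by 4.67, 4.19 and 2.72 on the log2 scale at 0, 2 and 4 µM, CXCL8 by 2.31, 2.31 and 0.98, and NRG1 by 3.88, 3.53 and 3.26. Of the lower genes, EGR1 was at -4.56, -4.25 and -5.66. The difference between doses in these values was not tested.

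Untreated parental cells, which share the OlaR libraries in any comparison with them, are given side by side with the values above. OlaR cells had 3027 DEGs against them, 1400 higher (10.7%) and 1627 lower (12.4%). For several risen genes the untreated level (mean ± SD, n = 3) lay between those of the other groups. KRT34 had 43.1 ± 5.61 adjusted reads in untreated, 1.27 ± 1.55 in olaparib-treated and 466 ± 22.3 in OlaR cells, EDN1 218 ± 33.3, 11.7 ± 11.3 and 793 ± 47.6, and INHBA 248 ± 35.9, 52.1 ± 8.29 and 1342 ± 19.4. DUSP5 and STC2 were higher in untreated cells than in OlaR cells, at 998 ± 113 and 1623 ± 383 against 655 ± 43.3 and 1262 ± 21.4. So for these 2 genes OlaR cells were higher than the olaparib-treated cells without being higher than untreated ones. Of 43 ISGs, 15 were lower and 2 higher than in untreated cells (median -0.77), and of 33 E2F targets 19 were higher (median 1.19). G2/M genes, by contrast, were higher in 11 of 38 and lower in 1 against untreated cells (median 0.83). NRF2 and glutathione genes were higher in 3 of 21 and lower in 1 (median 0.18). The activin and TGF-beta list was higher in 4 of 31 and lower in 2 (median 0.05), against 9 and 0 with olaparib-treated cells. NF-kB targets were higher in 2 of 35 and lower in 7 (median -0.07). MAPK feedback genes and EGF ligands were higher in 2 of 31 and lower in 8 (median -0.52).

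The same comparison in MDA-MB-468 gave 1017 higher (7.03%) and 914 lower DEGs (6.32%) of 14460 genes. Of the 987 higher DEGs of SUM1315, 157 were also higher there (15.9%, or 15.4% of those of MDA-MB-468), and of the 1190 lower ones 102 were also lower (8.57%, or 11.2%). The shares of the SUM1315 DEGs stand against 7.03% and 6.32% of all genes in that line. For 183 genes the calls were opposite. The difference between the lines, tested for each gene, had an adjusted p of at most 0.05 for 6033 of 14460 genes (41.7%), and for 1585 of the 2177 DEGs. These DEGs were called in the same SUM1315 libraries, so the larger share among them follows in part from that choice. MGP, which was nearly absent from OlaR SUM1315, had 30293 adjusted reads on average in OlaR and 14792 in olaparib-treated parental MDA-MB-468 cells. KRT5 had 3588 and 477 there, and INHBA 439 and 13.3. RSAD2 had under 1 adjusted read on average in both groups of that line. BRCA2, which fell in OlaR SUM1315, had 678 adjusted reads in OlaR and 511 in olaparib-treated MDA-MB-468 cells.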

How the data were processed

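RNA was measured in SUM1315 and MDA-MB-468 cells in 18 groups of 3 libraries. Per the labels and the submitters' processing notes, QuantSeq 3′ libraries were processed with CASAVA 1.8.2, FastQC, STAR, HTSeq and edgeR on hg38. The deposited signal is the read count that the authors adjusted with edgeR to 5585170 reads within each group. Whole reads were recovered by inverting this adjustment, and recomputing gave back 100% of 1483380 values (largest relative difference 3.9e-09). The deposited log2 fold changes, p-values and FDR of the authors' comparisons were not used.

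log2(adjusted value + 1) was fitted with limma 3.58.1 (R 4.3.3, trend) over the 27 SUM1315 libraries in 9 groups, without a replicate block. Genes with at least 10 in at least 3 libraries were tested and p-values adjusted by Benjamini-Hochberg. edgeR 4.0.16 and DESeq2 1.42.0 on the recovered reads were alternatives. The scripts were tested on simulated data. The line difference came from a fit of 54 libraries.

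Named genes were the PARP inhibitor genes, the 12 largest rises and falls with a mean of at least 30 and no overlap, the 2 largest of each direction in each of 24 lists, and 3 genes in each extreme run of 40 genes. Some of the genes under this rule are not reported here. Members and lists were chosen with earlier results of these data known. Gene positions matched 24243 names directly and 1033 by an older symbol, and 2194 had none. 27 names had been turned into dates. The protocols in the labels write olaparib doses in mM and the sample titles in µM, and µM is used.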

Additional observations from a re-analysis of the deposited data

Results flagged for a closer look

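For 30 of the genes named above for PARP inhibitor response or for the largest changes, the OlaR difference in SUM1315 differed from that in MDA-MB-468, by the test of the difference itself (limma, adjusted p at most 0.05). The line difference was past that limit for 41.7% of all genes tested, so its presence in a gene is common. Each value is the log2 fold change in SUM1315 minus that in MDA-MB-468.

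Among genes of PARP inhibitor response the difference was 1.05 for PARP1, 0.45 for PARP2, -0.95 for PARG, 1.33 for POLH, -1.74 for BRCA2, 0.40 for TP53BP1 and 3.41 for ABCB1. That of PARP2 lost the call without parental SUM1315 replicate 2 (0.26).

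For the genes that rose most in SUM1315 it was 7.46 for KRT34, 8.63 for IL1RN, 5.57 for TMEM98, 6.33 for SPANXN4, 6.68 for EDN1, 5.28 for SHH, 7.15 for IGFBP5, 6.01 for KRTAP7-1, 5.995 for IL36G, 6.36 for FARP1, 4.70 for OLR1 and 5.26 for DMKN. For those that fell most it was -7.51 for KLHL9, -6.62 for PCOLCE, -7.68 for MGP, -5.99 for APOE, -6.56 for BGN, -6.11 for COL3A1, -5.56 for FOCAD, -8.72 for SHISA2, -5.39 for FGD5, -6.71 for CHI3L1 and -5.36 for CCL2. KRTAP7-1, SPANXN4, IL36G, COL3A1 and CCL2 were at 0 in both MDA-MB-468 groups, so there the difference is that of SUM1315 alone. BGN, FGD5, APOE, SHH, ABCB1 and KRT34 averaged at most 3.16 adjusted reads in both MDA-MB-468 groups. For these genes the difference is mostly that of SUM1315. Why the lines differ was not tested.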

How the results depend on the processing

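With at least 4-fold as the limit, DEGs numbered 688 (347 higher, 341 lower), 699 (353 and 346) at 2 µM CDDP and 739 (283 and 456) at 4 µM. With no fold limit they numbered 6203 (2832 and 3371), 5774 (2779 and 2995) and 5882 (2617 and 3265). Both follow from the limit itself. Leaving out 1 library gave 2071 to 2124 (934 to 959 higher, 1118 to 1189 lower), 1939 to 2052 (870 to 970, 1057 to 1098) at 2 µM, 1971 to 2051 (742 to 784, 1224 to 1303) at 4 µM, and 5578 to 5717 for the line difference. The other settings (no filter, pseudocount 5, quantile normalization, edgeR, DESeq2, thinned reads, the 6 libraries alone) gave 1957 to 2485 without CDDP. The balance of directions moved with the scaling, to 1070 higher and 1111 lower under quantile normalization and 1047 and 1066 under DESeq2. With CDDP these were 964 and 1076 (2 µM) and 935 and 1087 (4 µM) by quantile normalization, and 937 and 1060, and 841 and 1191, by DESeq2. With the replicate block there were 2176 DEGs (989 higher, 1187 lower), 2039 and 2079 with CDDP, and 6001 for the line difference. Replicate numbers did not pair the libraries, since deviations of same-numbered OlaR and parental libraries correlated at -0.00725, -0.0109 and -0.0353 and no OlaR library correlated best with its own number.

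Of 93 named genes, 83 kept their call under all alternatives. TYW1B, PILRB, BUB1, ADM, S100P, BMPER, LINC01176, SYT17, CXorf57 and PARP2 changed in at least 1. PARP2 ranged from -0.11 (without parental olaparib replicate 2) to 0.19 over left-out libraries, and the cause was not tested. The median log2 fold change of cholesterol genes and metallothioneins also changed sign, the latter to -0.15 under quantile normalization. OlaR libraries are shallower, so a gene with few reads can be missed there. A gene at 0 reads is a bound only.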

Other observations

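Protease inhibitors of the serpin, TIMP and related families moved in both directions, with 6 higher and 9 lower of 23 (median log2 fold change -0.81). SERPINB2, plasminogen activator inhibitor 2, had 11, 19 and 14 reads in OlaR cells and none in olaparib-treated parental cells, at least 26-fold higher. TFPI2 had 10038, 9923 and 10397 adjusted reads against 1649, 1733 and 1704 (log2 fold change 2.58), and TIMP3 rose by 1.84. TIMP1 had 1814, 1887 and 1861 against 4995, 4455 and 4729.6 and fell by 1.35, SLPI fell by 1.58 and SERPINB4 by 2.27. TIMP3 was at 13736 adjusted reads on average in untreated parental cells, above the OlaR level of 11778, 11498 and 11790.3.

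Of 12 S100 genes, which encode calcium-binding proteins, 2 were higher and 2 lower (median -0.17). S100A7, psoriasin, had 233, 181 and 197 adjusted reads in OlaR cells and 38.6, 22.7 and 24 in parental cells (log2 fold change 2.83), and S100A4 and S100A3 fell by 1.71 and 1.72. S100P rose by 1.55 and was no longer called without parental olaparib replicate 3 (0.82). Hypoxia and glycolysis genes held 1 higher (3.12%) and 2 lower (6.25%) of 32 (median -0.06), shares under those of all genes. P4HA1 and PFKFB3 were lower at log2 fold changes of -1.17 and -1.21. ADM was at 1.04 and went under the 2-fold limit without OlaR replicate 1 or parental replicate 1 (0.97 and 0.98). Cholesterol synthesis genes held 1 lower and no higher of 24 (median 0.01). None of 3 metallothioneins was called (median 0.22). The 13 mitochondrially encoded transcripts were not found by name among the genes of the deposited values, so they could not be tested.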
